A study of Mus musculus with 3 samples.

Results

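The respiratory chain genes of the nucleus were followed through 3 RIA-seq libraries from mouse ES cells. Their members were all gene symbols that begin with Nduf, Uqcr, Atp5, Cox4, Cox5, Cox6, Cox7 or Cox8, together with Sdha, Sdhb, Sdhc and Sdhd, without symbols that carry -ps. This rule found 91 of the 26887 gene names listed. By assigned role they comprised 36 subunits of complex I, 4 complex I assembly factors (the Ndufaf genes), 4 subunits of complex II and 8 of complex III. A further 20 were subunits and isoforms of complex IV and 16 were genes of complex V, and 3 genes were not placed in a respiratory complex here. Of the 91, 90 are protein-coding in the annotation and Atp5l2 is a pseudogene.

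RIA-seq (RNA interactome analysis followed by sequencing) recovers the RNAs that stay attached to 1 chosen RNA in fixed cells. E14 ES cells, a line of mouse embryonic stem cells of strain 129/Ola, were grown without feeders and fixed with 1% glutaraldehyde for 10 min. After sonication, the lysate was left overnight at 37 °C with antisense oligonucleotides, and the RNA held on streptavidin beads was converted into cDNA and sequenced. All 3 conditions shared the cells, the strain and the fixation, and differed in the target of the oligonucleotides. Those against the mRNA of Actb, which encodes β-actin, gave the control, called the Actb library below. Those against Malat1, a nuclear long noncoding RNA, gave the Malat1 library, and those against the mRNA of Tfrc, the transferrin receptor, gave the Tfrc library. Each condition had 1 library, so that no difference below has a replicate check and no test between conditions was made. A lysate pools many cells, so fewer cells of a type and less RNA per cell cannot be told apart.

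The respiratory chain of the inner mitochondrial membrane passes electrons from NADH (complex I) and succinate (complex II) through complex III and cytochrome c to oxygen (complex IV), and complex V makes ATP from the proton gradient that this builds. Most subunits are encoded in the nucleus, translated in the cytosol or at the mitochondrial surface and imported, whereas a few core subunits are encoded in the mitochondrial genome. The nuclear mRNAs are mostly short, abundant and expressed in nearly every cell type, as a housekeeping set.

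The deposited values are whole read counts, with up to 2 counts per gene and library. The first carries an Ensembl identifier (Ensembl-ID count) and the second the word Genome in its place (Genome count). Both were summed for each gene. The libraries held between 10078439 and 14553941 counts, and a detection limit of 3 counts corresponded to 0.206 to 0.298 CPM (counts per 1000000 counts of the library). The Genome share was 5.25% with Actb, 19.0% with Malat1 and 15.1% with Tfrc. Lars2, a mitochondrial leucyl-tRNA synthetase gene, took 32.0%, 17.0% and 22.2% of the counts in the same order, and such a share lowers the CPM of every other gene. Actb was at 73038 CPM in its own library against 889 and 924 in the other libraries, Malat1 at 1834, 10657 and 7041 CPM, and Tfrc at 43.5, 101 and 117 CPM. The Tfrc library thus differed little from the Malat1 library in its own target, with 117 against 101 CPM. The 8 ES cell markers, among them Pou5f1, Sox2 and Nanog, summed to between 2983 and 4193 CPM, whereas fibroblast markers summed to at most 21.6 CPM, endoderm markers to at most 12.9 and neural markers to at most 33.7, with Sox1 at 0 in every library.

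All 91 members had counts in each library. Together they held 59433 counts in the Actb library, which is 0.571% of the library (95% Wilson interval 0.567 to 0.576). They held 64730 counts or 0.642% (0.637 to 0.647) in the Malat1 library and 87978 counts or 0.604% (0.601 to 0.608) in the Tfrc library. The intervals treat each read as an independent draw and hold no spread between replicates. The PCR-amplified reads carried no molecular identifiers, so the intervals may be too narrow even for counting error. The ratio of these shares was 1.12 (95% interval 1.11 to 1.14) for Malat1 over Actb and 1.06 (1.05 to 1.07) for Tfrc over Actb, but this direction turned when the libraries were scaled by the median ratio over genes, where the scaled shares were 0.836% in the Actb library, 0.499% in the Malat1 library and 0.532% in the Tfrc library. The position of the members among all genes does not depend on the scaling, and is given for each complex as the number of genes under the all-gene median. The orders of the libraries given for single genes below refer to shares of the library total.

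A few mRNAs held much of the total. The 5 members with the most counts took 31.1% of the member counts in the Actb library, 27.5% in the Malat1 library and 30.1% in the Tfrc library, led in every library by Atp5b. The median member was at 40.4, 47.4 and 45.2 CPM. Per kilobase of annotated mRNA and on Ensembl-ID counts only, Cox7c ranked first with 583 CPM per kb in the Actb library, 607 in the Malat1 library and 641 in the Tfrc library, ahead of Atp5b with 394, 346 and 414. At the other end were the tissue-restricted isoforms Cox6a2, Cox8b and Cox8c, with at most 12 counts in any library, and these 3 did not reach the minimum of 10 counts in both libraries of a comparison. The folds below therefore cover 88 members.

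**Figure D1:**
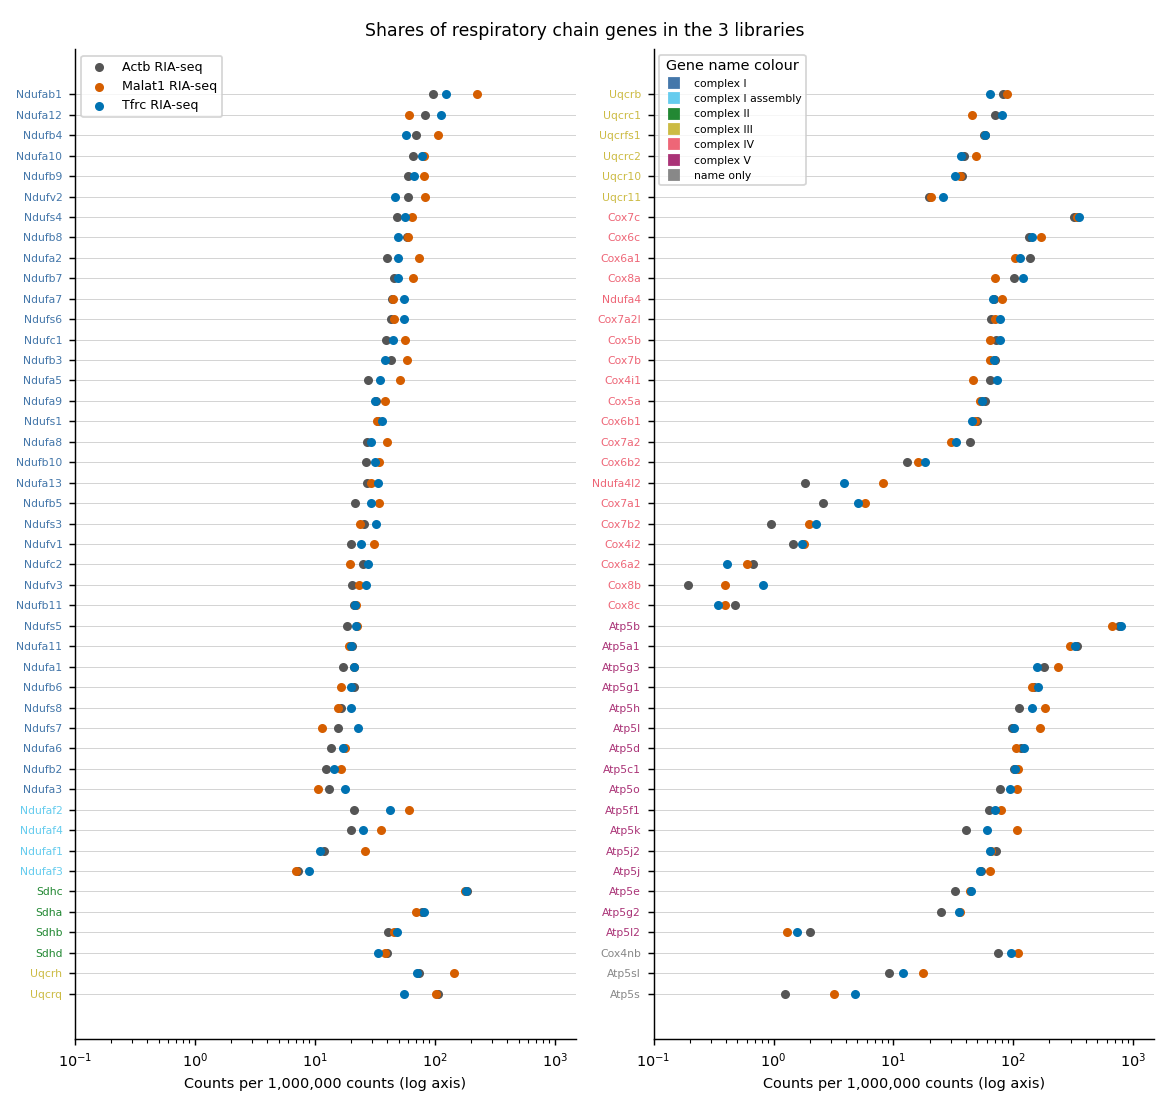
Shares of 90 of the 91 genes in the 3 libraries, in CPM on a log axis, with 1 point per library and gene names coloured by complex. The 3 points of most genes lie close together on this axis, from Atp5b at 665 to 795 CPM down to Cox8b at 0.192 to 0.825 CPM.

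Folds over the Actb library were close to 1 for most members in shares of the library total, with medians of 1.16 for Malat1 and 1.13 for Tfrc, and turned below 1 when the libraries were scaled by the median ratio over genes, with medians of 0.616 and 0.680. Both comparisons use the same Actb library and are therefore not independent, and pairs of folds below are given in the order Malat1 over Actb, then Tfrc over Actb. In Malat1 over Actb the median fold was 1.16 over 88 members and 1.82 over the 14572 genes that reached 10 counts in both. With 1 library per condition a gene was called at a fold of 2 or more, which held for 8 of 88 members (9.09%) beside 42.1% of all genes. None of the 88 was at 0.5 or less, beside 0.954% of all genes. A fold under the all-gene median was found for 76 of 88 members (86.4%). Thus the members lay on the low side of the distribution of folds without leaving it.

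In Tfrc over Actb the median fold was 1.13 over the 88 members and 1.56 over 14691 genes. A fold of 2 or more was reached by 3 of 88 members (3.41%) beside 28.6% of all genes, none was at 0.5 or less (0.388% of all genes), and 83 of 88 (94.3%) were under the all-gene median. The interquartile range of the members was 0.972 to 1.26, against 1.18 to 2.10 over all genes. Directly compared, Malat1 over Tfrc gave a median of 1.04 for the members and 1.15 for 16430 genes, with 57 of 88 members under the all-gene median and 3 of 88 (3.41%) at 2-fold or more beside 4.35% of all genes. The members thus stood apart from the other genes in both comparisons with the Actb library and less so where that library was absent, and the difference between these comparisons was not tested.

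**Figure D2:**
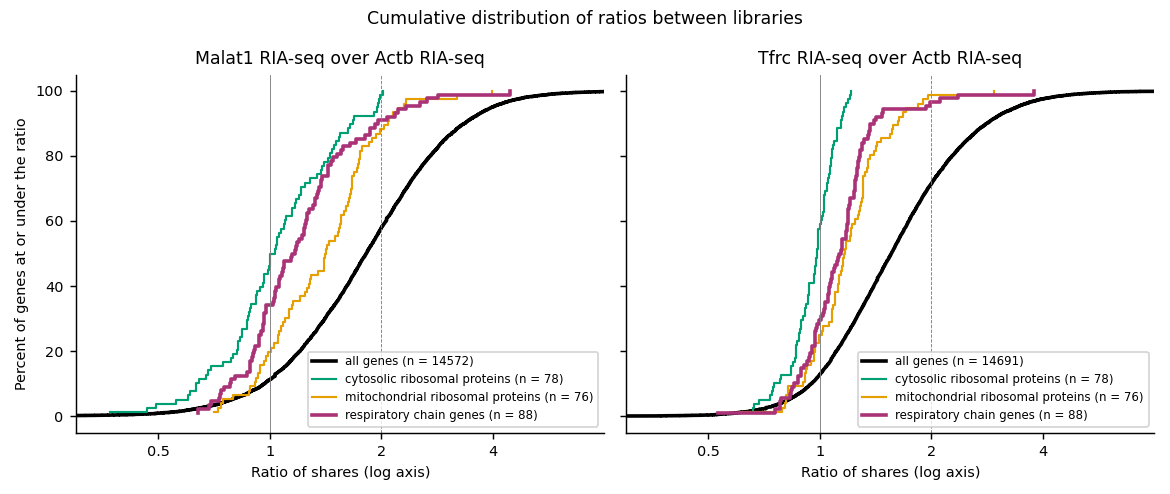
Cumulative distribution of the ratio of shares (log axis) for Malat1 over Actb (left) and Tfrc over Actb (right), for all genes that reached 10 counts in both, the respiratory chain genes, cytosolic ribosomal protein genes and mitochondrial ribosomal protein genes. The curve of the respiratory chain genes lies left of that of all genes, with medians of 1.16 against 1.82 and 1.13 against 1.56.

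The 2 kinds of count differed. On Ensembl-ID counts alone the median fold of the members was 0.984 for Malat1 over Actb (all genes 1.41) and 1.05 for Tfrc over Actb (all genes 1.26), and 68 of 86 and 76 of 87 members were under the all-gene median. On Genome counts alone, where 56 members had 10 counts in both libraries, the medians were 2.94 (all genes 3.60) and 2.29 (all genes 2.86). The members' Genome counts summed to 1492 in the Actb library, 5286 in the Malat1 library and 5434 in the Tfrc library. Scaled to the Genome total of each library rather than to all counts, the ratios were 1.01 and 0.906.

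Complex I oxidizes NADH and is the largest of the complexes. Its 36 nuclear subunits took 0.132% of the counts with Actb, 0.171% with Malat1 and 0.148% with Tfrc. The median fold was 1.22 for Malat1 over Actb and 1.18 for Tfrc over Actb, and 33 and 36 of 36 subunits were under the all-gene median. Only Ndufab1 reached 2-fold in the first comparison, and no subunit did in the second.

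The 7 core subunits carry the flavin and the iron-sulfur clusters and bind the quinone. All 7 were under the all-gene median in both comparisons, with medians of 0.979 and 1.20. They nevertheless did not move as a unit. Ndufs7, a subunit with an iron-sulfur cluster next to the quinone site, was at 15.6 CPM with Actb, 11.5 with Malat1 and 22.9 with Tfrc, lowest in the Malat1 library and highest in the Tfrc library in shares of the total. Relative to the median gene its folds were 0.406 and 0.943, so that on this scale the Actb library was the highest. Its fold over the Actb library was 0.739 (0.582 to 0.938) and 1.47 (1.22 to 1.77), and the direct ratio of Malat1 over Tfrc, 0.503 (0.407 to 0.621), was the lowest among the 88 members. Ndufv2, a subunit of the NADH-oxidizing arm, had the opposite order in shares of the total with 59.4 CPM with Actb, 82.3 with Malat1 and 46.3 with Tfrc, and 0.761 and 0.500 relative to the median gene. Its folds were 1.38 (1.25 to 1.54) and 0.780 (0.699 to 0.870), and the latter was higher than that of only 3.85% of all genes. Among other core subunits, Ndufv1 had folds of 1.55 and 1.20, Ndufs1 0.979 and 1.08, Ndufs3 0.932 and 1.26, and Ndufs8 0.936 and 1.21.

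Among the 29 accessory subunits the median folds were 1.24 and 1.18. Ndufab1 (ENSMUSG00000030869, chr7:129228917-129245400 on the minus strand, NCBIM37) encodes the mitochondrial acyl carrier protein, which also serves fatty acid synthesis. It was at 97.4 CPM with Actb, 227 with Malat1 and 123 with Tfrc, and the Malat1 library stood out. The fold of Malat1 over Actb was 2.33 (2.16 to 2.51), above 69.8% of all genes and 1.28 when the median gene was set to 1. In Tfrc over Actb it was 1.26 (1.17 to 1.37), or 0.811 relative to the median gene. Its Ensembl-ID counts were 998, 2248 and 1761, and gave 2.33 on their own. Annotated processed copies of Ndufab1, at 99.4% identity or more, had at most 33 counts in any library.

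Ndufa12, which joins the peripheral arm of complex I, showed a contrast between the 2 kinds of count. Summed, it was at 83.3 CPM with Actb, 60.7 with Malat1 and 114 with Tfrc, with the lowest value in the Malat1 library. The Ensembl-ID counts of 837, 470 and 1495 gave a fold of 0.580 (0.518 to 0.649) for Malat1 over Actb, while the Genome counts of 30, 142 and 160 gave 4.89 (3.30 to 7.25). Gm15920, a copy of its coding sequence at 99.5% identity, had 277, 209 and 430 counts, and how reads that match both were counted is not given in the sources used here. The value of Ndufa12 is therefore uncertain.

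The 4 Ndufaf genes under the rule encode assembly factors that help to build complex I and are not part of the finished enzyme. Their median folds of 1.99 and 1.25 lay nearer to those of all genes, with 2 and 3 of 4 under the all-gene median. Ndufaf2 (ENSMUSG00000068184, chr13:108842784-108948819 on the minus strand) is the chaperone whose place Ndufa12 takes in the mature complex. It was at 21.3 CPM with Actb, 60.7 with Malat1 and 42.3 with Tfrc, low in the Actb library and highest in the Malat1 library. The folds of 2.85 (2.44 to 3.32) and 1.98 (1.70 to 2.31) were the highest among members with at least 50 counts in both libraries. These rested on the Genome counts, 81, 464 and 423, whereas the Ensembl-ID counts, 141, 148 and 192, gave 1.08 (0.860 to 1.36) and 0.974 (0.783 to 1.21). Genome counts made up 36.5%, 75.8% and 68.8% of the counts of Ndufaf2 in the 3 libraries, the highest share of any member with at least 100 counts, and its introns span 105357 nt in the annotation beside a median of 5918.5 nt for the members. Ndufaf1, which joins an early intermediate, was at 12.01 CPM with Actb, 26.1 with Malat1 and 11.1 with Tfrc, with folds of 2.17 (1.76 to 2.69) and 0.921 (0.729 to 1.16). Ndufaf4 had folds of 1.81 (1.52 to 2.14) and 1.26 (1.06 to 1.5), and Ndufaf3 of 0.964 (0.696 to 1.33) and 1.24 (0.933 to 1.65).

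**Figure D3:**
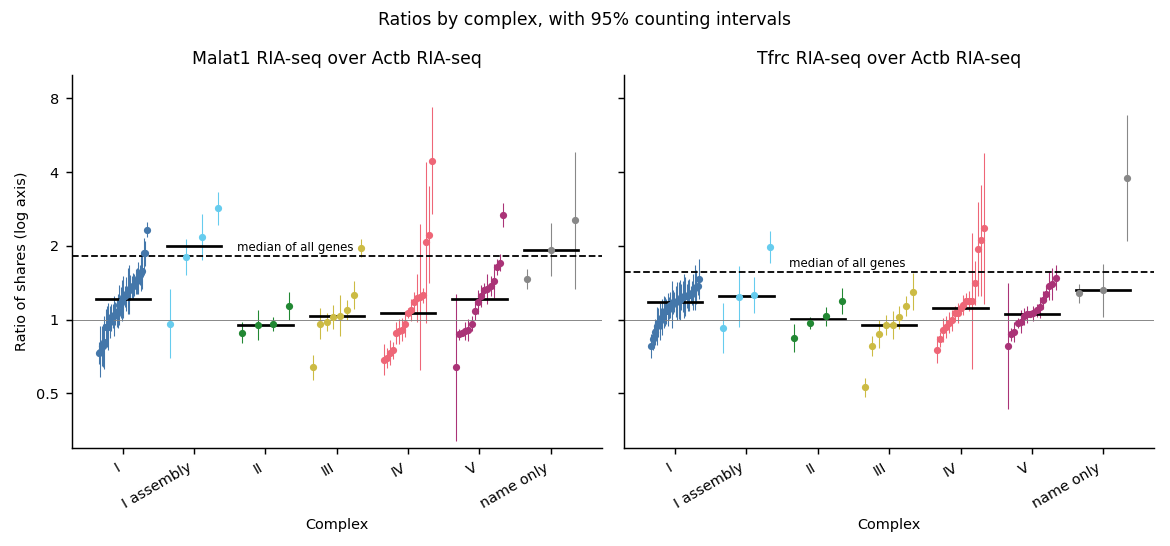
Ratio of shares (log axis) over the Actb library for the 88 members, grouped by complex and ordered within each group, with 95% counting intervals. Solid bars mark the group medians and the dashed line the median of all genes, which lies above the medians of complexes I to V in both panels. Complex I assembly factors had medians of 1.99 and 1.25.

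Complex II, which is succinate dehydrogenase of the tricarboxylic acid cycle and the only complex without a mitochondrially encoded subunit, gave ratios near 1 in shares of the library total. Its 4 subunits took 0.0345% of the counts with Actb, 0.0332% with Malat1 and 0.0344% with Tfrc. The ratio of the sums was 0.962 (0.918 to 1.01) for Malat1 over Actb and 0.995 (0.954 to 1.04) for Tfrc over Actb, and all 4 subunits were under the all-gene median in both. Sdhc, a membrane anchor subunit with the most counts of the 4, was at 186 CPM with Actb, 178 with Malat1 and 181 with Tfrc, with no library apart from the others. Its folds were 0.959 (0.899 to 1.02) and 0.970 (0.915 to 1.03). Sdha, the flavoprotein that oxidizes succinate, had folds of 0.885 (0.800 to 0.979) and 1.03 (0.944 to 1.13). Sdhb, the iron-sulfur subunit, had 1.14 (1.000 to 1.30) and 1.19 (1.06 to 1.34), and Sdhd, the other anchor, 0.948 (0.826 to 1.09) and 0.842 (0.739 to 0.959). Relative to the median gene these folds lay between 0.486 and 0.764.

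Complex III passes electrons from ubiquinol to cytochrome c. The 8 genes under the rule, which leaves out Cyc1, took 0.0484% of the counts with Actb, 0.0546% with Malat1 and 0.0423% with Tfrc, with median folds of 1.03 and 0.951. Of these, 7 and 8 of 8 were under the all-gene median. Single subunits differed in where they were low. Uqcrh, the acidic hinge protein that meets cytochrome c, was at 74.1 CPM with Actb, 145 with Malat1 and 70.4 with Tfrc, with the highest value in the Malat1 library. Its fold was 1.96 (1.79 to 2.14) for Malat1 over Actb, or 1.08 relative to the median gene, and 0.950 (0.866 to 1.04) for Tfrc over Actb, or 0.610. Uqcrq, a small subunit in contact with cytochrome b, was at 106 CPM with Actb, 103 with Malat1 and 55.9 with Tfrc, with the lowest value in the Tfrc library. Relative to the median gene it was lower than in the Actb library in both, at 0.538 and 0.340. The fold of Tfrc over Actb, 0.529 (0.483 to 0.580), was the lowest of the 88 members and exceeded that of 0.572% of all genes. Uqcrc1, a large core protein on the matrix side, was at 70.4 CPM with Actb, 44.9 with Malat1 and 80.3 with Tfrc, with the lowest value in the Malat1 library, and at 0.351 and 0.731 relative to the median gene. Its fold there, 0.638 (0.568 to 0.717), was the lowest of the members for Malat1 over Actb and exceeded that of 2.42% of all genes. Uqcrc2, its partner in the core, had folds of 1.26 and 0.951, and Uqcrfs1, the Rieske iron-sulfur protein, 1.03 and 1.02.

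Complex IV reduces oxygen. Its 11 widely expressed subunits took 0.112% of the counts with Actb, 0.107% with Malat1 and 0.115% with Tfrc. All 11 were under the all-gene median in both comparisons, and their median folds were 0.895 and 0.992. Cox7c, with the most counts among them, was at 318 CPM with Actb, 339 with Malat1 and 355 with Tfrc, with folds of 1.06 (1.01 to 1.12) and 1.12 (1.07 to 1.17). Copies of the Cox7c coding sequence elsewhere in the genome held 4083 Ensembl-ID counts over the 3 libraries beside 11613 for Cox7c itself, so the split between them is uncertain. Cox6c, a transmembrane subunit, was at 134 CPM with Actb, 169 with Malat1 and 142 with Tfrc, with folds of 1.26 (1.17 to 1.35) and 1.06 (0.991 to 1.14). Cox8a, a small transmembrane subunit, was at 101 CPM with Actb, 70.4 with Malat1 and 120.3 with Tfrc, low in the Malat1 library. Its folds of 0.695 (0.632 to 0.764) and 1.19 (1.10 to 1.28) lay on either side of 1 in shares of the total, but relative to the median gene both were below 1, at 0.382 and 0.761. No close copy of its coding sequence was found in the annotation. Cox7a2 was highest in the Actb library, at 43.8 CPM with Actb, 30.1 with Malat1 and 33.0 with Tfrc, with folds of 0.686 (0.593 to 0.793) and 0.754 (0.663 to 0.857).

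Several complex IV subunits exist as isoforms for particular tissues or conditions, and the ES cell libraries held mainly the widespread form of each. Levels of different isoforms are compared here as Ensembl-ID counts in CPM per kilobase of annotated mRNA. Cox4i1 was at 92.4, 67.8 and 106 CPM per kb in the Actb, Malat1 and Tfrc libraries, and Cox4i2, a form known from lung, at 1.98, 1.91 and 2.17. Cox6a1 was at 238, 173 and 199 CPM per kb, and Cox6a2, the heart and skeletal muscle form, at 1.02, 0.905 and 0.627. Cox7a2 was at 56.6, 31.6 and 40.2 CPM per kb, Cox7a2l, a supercomplex factor with a related name, at 55.5, 52.6 and 63.9, and Cox7a1, the muscle form, at 6.60, 12.3 and 11.7. Cox6b2, known from testis, was the highest of the restricted forms with 17.6, 13.0 and 17.2 CPM per kb, beside 96.5, 85.1 and 84.9 for Cox6b1. With both kinds of count summed, Cox6b2 was at 13.0 CPM with Actb, 15.9 with Malat1 and 18.3 with Tfrc. Genome counts made up 25.2%, 55% and 48.3% of its counts although its introns span only 750 nt. Cox7b2 rested mostly on Genome counts, with 10, 19 and 28 of 10, 20 and 33 counts, beside 725, 639 and 1006 counts for Cox7b.

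The 6 restricted forms and related genes with enough counts (Cox4i2, Cox6b2, Cox7a1, Cox7a2l, Cox7b2 and Ndufa4l2) had median folds of 1.65 and 1.67, with 3 of 6 under the all-gene median in each comparison. Their depth ranged from 10, 20 and 33 counts for Cox7b2 to 676, 715 and 1123 for Cox7a2l. Ndufa4l2, which is related to the complex IV subunit Ndufa4 and known to be induced under low oxygen, had 19, 82 and 56 counts and the highest fold of the members for Malat1 over Actb at 4.46 (2.71 to 7.34). In Tfrc over Actb its fold was 2.11 (1.25 to 3.55). Ndufa4 itself, with 718, 817 and 975 counts, had folds of 1.17 and 0.971. The exons of Ndufa4l2 overlap those of Shmt2 on the opposite strand, and without a stated use of strand in counting, reads of the 2 genes cannot be told apart. Cox7a1, with 27, 58 and 73 counts, had folds of 2.22 (1.40 to 3.50) and 1.93 (1.24 to 3.01).

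Complex V, the ATP synthase, held the largest share of the member counts, with 0.221% of the counts with Actb, 0.240% with Malat1 and 0.233% with Tfrc. Of its 16 genes, 15 and 16 were under the all-gene median. In the catalytic F1 part the 5 subunits had median folds of 0.898 and 1.05. The 10 subunits of the membrane part and the stalk had 1.35 and 1.11. Atp5b (ENSMUSG00000025393, chr10:127520329-127527447 on the plus strand) encodes the catalytic β subunit. It had the most counts of the members with 755 CPM with Actb, 665 with Malat1 and 795 with Tfrc, lowest in the Malat1 library. Its folds were 0.881 (0.853 to 0.911) and 1.05 (1.02 to 1.08). Atp5a1, the α subunit, was at 339.6 CPM with Actb, 295 with Malat1 and 329 with Tfrc, with 0.870 (0.828 to 0.913) and 0.968 (0.927 to 1.01). The intervals of these F1 subunits, which form the catalytic ring together, overlapped in the first comparison and lay apart in the second. Atp5k (ENSMUSG00000050856, chr5:108862263-108863467 on the minus strand), the small e subunit of the membrane part that takes part in dimers of the enzyme, was at 40.3 CPM with Actb, 107 with Malat1 and 59.7 with Tfrc, with the lowest value in the Actb library. Its folds of 2.66 (2.38 to 2.98) and 1.48 (1.32 to 1.67) exceeded those of 79.0% and 45.6% of all genes. Relative to the median gene they were 1.46 and 0.951, so the second is above 1 in shares of the library total and below 1 on this scale. Atp5l and Atp5h, also of the membrane part and stalk, had folds of 1.71 and 1.64 for Malat1 over Actb, but a copy of the Atp5l sequence, Gm4853, held 459, 804 and 529 counts beside 1008, 1668 and 1481 for Atp5l.

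Subunit c, which forms the rotating ring, is encoded by 3 genes whose last 78 residues are the same, and the reads of the 3 mRNAs can be told apart there only by synonymous bases. The stretch covers 234 coding nt of annotated mRNAs of 596, 647 and 714 nt for Atp5g1, Atp5g2 and Atp5g3, so counts also come from parts outside it. Its first 30 coding bases are shown from the annotated transcripts, with the 11 positions that vary among the 3 genes in capitals.
Atp5g1 (chr11:95934929-95934958, minus strand, NCBIM37): atTTCCCgGgacatCgaCacAgcAgccaaG
Atp5g2 (chr15:102495577-102495606, minus strand, NCBIM37): atTTCAAgGgacatCgaCacAgcTgccaaG
Atp5g3 (chr2:73747333-73747362, minus strand, NCBIM37): atCAGCAgAgacatTgaTacTgcTgccaaA
Over the 234 shared coding nt, Atp5g1 and Atp5g2 were 84.6% identical, Atp5g1 and Atp5g3 78.6%, and Atp5g2 and Atp5g3 77.4%. Atp5g1 was at 148 CPM with Actb, 143 with Malat1 and 162 with Tfrc, with folds of 0.962 (0.895 to 1.03) and 1.09 (1.02 to 1.16). Atp5g3 was at 179 CPM with Actb, 237 with Malat1 and 156 with Tfrc, with 1.32 (1.24 to 1.40) and 0.870 (0.818 to 0.925). Per kilobase and on Ensembl-ID counts only, Atp5g1 was at 241, 201 and 252 CPM per kb and Atp5g3 at 250.1, 328 and 216. On this scale Atp5g3 was the higher of both in the Actb and Malat1 libraries and Atp5g1 in the Tfrc library. The lengths used were 596 nt for Atp5g1 and 714 nt for Atp5g3, whereas their merged exons span 4908 and 2181 nt. The order of these genes therefore depends on the length chosen. Atp5g2, at 35.8, 30.1 and 36.2 CPM per kb on the same scale and, with both kinds summed, at 25.1 CPM with Actb, 36.0 with Malat1 and 35.0 with Tfrc, had folds of 1.44 (1.22 to 1.68) and 1.40 (1.20 to 1.62), and its Ensembl-ID counts alone, 241, 196 and 341, gave 0.840 and 1.01. Processed copies of Atp5g1 and Atp5g2 with at least 90% identity held 774 and 249 Ensembl-ID counts over the 3 libraries, and none was found for Atp5g3.

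The 3 genes not placed in a respiratory complex here were Cox4nb, Atp5s and Atp5sl. The first is a neighbour of Cox4i1 and encodes a subunit of the membrane protein complex of the endoplasmic reticulum. Cox4nb was at 74.1 CPM with Actb, 109 with Malat1 and 94.96 with Tfrc, had no Genome count in any library and had folds of 1.47 (1.34 to 1.61) and 1.28 (1.17 to 1.40). Atp5sl was at 9.13 to 17.6 CPM, with folds of 1.92 (1.5 to 2.47) and 1.32 (1.03 to 1.69). Atp5s, at 13, 32 and 69 counts, had 2.54 (1.33 to 4.84) and 3.79 (2.10 to 6.86). Without the assembly factors and these 3 genes, the subunits alone had medians of 1.09 and 1.11.

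The members called for Malat1 over Actb were Ndufab1, Ndufaf1, Ndufaf2, Atp5k, Ndufa4l2, Cox7a1, Cox7b2 and Atp5s, and the last 4 had fewer than 50 counts in the Actb library. Those called for Tfrc over Actb were Ndufa4l2, Cox7b2 and Atp5s, all at low depth. With at least 50 counts in both libraries, 4 members remained at 2-fold or more in the first comparison (37.6% of all genes) and 0 in the second (20.8%).

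The members share features that the rule did not use. Their annotated mRNAs had a median length of 756 nt, against 2730 nt for the 12764 protein-coding genes with at least 10 counts in every library. The introns summed to a median of 5918.5 nt against 20176 nt, and the median number of merged exons was 4 against 10. Over 12791 protein-coding genes the fold for Malat1 over Actb had a Spearman's rho of 0.27 with mRNA length and 0.38 with intron length. On Ensembl-ID counts only, over 11753 genes, the values were 0.21 and 0.11. As a description across genes that share libraries, length went with the fold, and intron length only weakly on Ensembl-ID counts. Among other protein-coding genes of up to 500 nt the median fold for Malat1 over Actb was 1.06, beside 1.21 for the 10 members of that length with 4 of 10 under it, and among other genes of 2000 to 4000 nt it was 1.86. At 500 to 1000 nt, where 43 members lie, other genes had a median of 1.29 and the members 1.20, with 26 of 43 under the median of the other genes. At 1000 to 2000 nt the medians were 1.65 and 1.14, with 22 of 26 members under it, and at 2000 to 4000 nt 1.86 and 0.959, with 7 of 7.

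For Tfrc over Actb, other genes of up to 500 nt had a median fold of 1.00 and the 10 members 1.27, with 3 of 10 under it. Other genes of 500 to 1000 nt had a median fold of 1.13 and the members of that length 1.10, with 24 of 43 under it. At 1000 to 2000 nt the medians were 1.40 and 1.16, with 25 of 26 members under it. Thus members of up to 500 nt were above other genes of their length in the median, those of 500 to 1000 nt were close to them, and those of 1000 to 4000 nt were lower. The part of length in the result was not tested. Within the 87 protein-coding members tested, the fold had a Spearman's rho with mRNA length of −0.04 and −0.10 in the 2 comparisons.

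**Figure D4:**
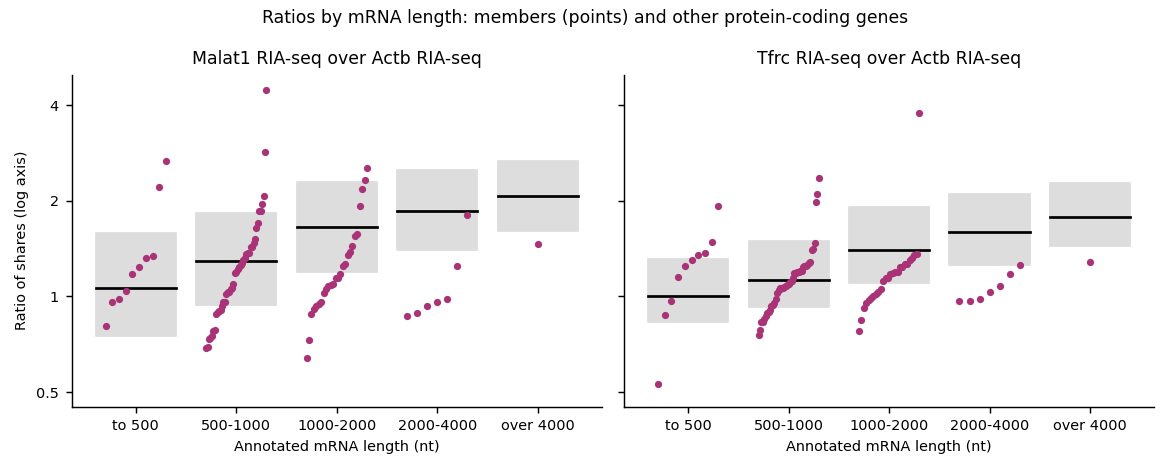
Ratio of shares over the Actb library (log axis) by annotated mRNA length. Points are the respiratory chain genes, and bars and boxes are the median and the interquartile range of the other protein-coding genes in each length class. Members of 500 to 1000 nt spread around the median of the other genes, and those of 1000 to 4000 nt lie mostly under it.

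A gap was also seen among genes of like level above 10 CPM. Among genes at a mean of 30 to 100 CPM, the other protein-coding genes had median folds of 1.81 and 1.51 in the 2 comparisons and the 48 members 1.16 and 1.08, with 43 and 47 of 48 under the median of the others, and the part of level was not tested. At 100 to 300 CPM the values were 1.70 and 1.39 for other genes and 1.17 and 1.06 for the 10 members. Up to 10 CPM the members were higher, with 2.14 and 2.02 for 6 members, 2 of 6 under the median in each comparison, beside 1.85 and 1.68 for other genes.

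Genome counts also formed a smaller part of the members than of other genes. In the 85 members with at least 100 counts, the median share of Genome counts was 2.91% in the Actb library, 9.41% in the Malat1 library and 6.58% in the Tfrc library. In 11831 other protein-coding genes it was 12.3%, 27.2% and 24.2%. Summed over the members the share was 2.51%, 8.17% and 6.18%, lowest in the Actb library as in the library as a whole. It ranged from 0 in Cox4nb and 0.13% in Atp5b to 46.5% in Atp5s and 66.8% in Ndufaf2 over the 3 libraries together. The share went with annotated intron length less closely in the members (Spearman's rho 0.36, n = 85) than in all protein-coding genes (0.69, n = 11916), as a description across genes.

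**Figure D5:**
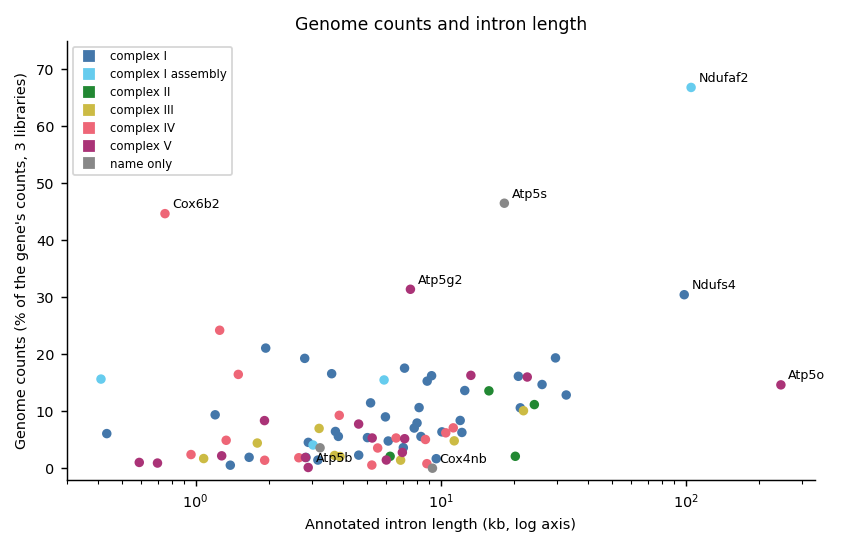
Genome counts as a percent of the counts of each member with at least 100 counts, over the 3 libraries together, against annotated intron length in kb (log axis), with 1 point per gene coloured by complex. Most members lie under 20%, with Ndufaf2 at 66.8%, Atp5s at 46.5% and Cox6b2 at 44.7% above the others.

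Promoters of respiratory chain genes are known to hold sites for the factors NRF1, GABP of the ETS family and YY1. RefSeq promoter windows of 300 bases, 250 before and 50 after the start, were found for 74 members and searched on both strands. The NRF1 letters (GCGCA, any base, then GCGC) were found in 18 of 74 members (24.3%) and in 7.17% of 17492 protein-coding genes. The ETS letters CCGGAAG were in 17 members (23.0%) and in 12.9% of genes, and the YY1 letters AAGATGGC in 11 members (14.9%) and in 3.57% of genes. None of the 3 strings contains another. A match is a string of letters and not a bound site. Shown are 30 bases around matches in members described above, with the motif, or its reverse complement where it lies on the other strand, in capitals and positions given on the build of the files.
Atp5k (NRF1 letters, chr5:108863449-108863478, minus strand, NCBIM37): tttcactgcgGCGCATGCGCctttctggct
Sdha (NRF1 letters, chr13:74487679-74487708, minus strand, NCBIM37): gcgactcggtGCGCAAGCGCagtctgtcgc
Uqcrc1 (NRF1 letters, chr9:108838656-108838685, plus strand, NCBIM37): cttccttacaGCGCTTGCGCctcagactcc
Uqcrh (ETS letters, chr4:115747667-115747696, minus strand, NCBIM37): agtatgccgcaCTTCCGGccaggtcgccgg
Cox8a (ETS letters, chr19:7292057-7292086, minus strand, NCBIM37): tcagcgccggaaCTTCCGGctggttcggcc
Ndufs7 (YY1 letters, chr10:79712207-79712236, plus strand, NCBIM37): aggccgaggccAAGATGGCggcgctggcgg
Members with the same letters differed in fold, but these folds compare pull-downs from the same cells and do not measure promoter activity. Atp5k, Sdha and Uqcrc1 carry the NRF1 letters and had folds of 2.66, 0.885 and 0.638 for Malat1 over Actb, and Uqcrh and Cox8a carry the ETS letters and had 1.96 and 0.695. The 18 members with NRF1 letters had median folds of 1.31 and 1.17, and the 55 tested without them 1.14 and 1.15. For the ETS letters the medians were 1.14 and 1.08 for the 17 with and 1.17 and 1.16 for the 56 without, and for the YY1 letters 1.17 and 1.15 for the 11 with and 1.16 and 1.16 for the 62 without.

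Other gene lists of the same pathway were set beside the members. Cycs and Cyc1, cytochrome c and the cytochrome c1 subunit of complex III, had folds of 0.863 and 1.14 for Malat1 over Actb and of 1.02 and 1.01 for Tfrc over Actb. Of 25 assembly factors outside the rule, 24 had enough counts. Their medians of 1.63 and 1.34 were above those of the members, and 10 and 5 of 24 were at 2-fold or more, beside 42.1% and 28.6% of all genes. They included Ttc19 of complex III (3.65 and 2.24) and Cox10, the heme farnesyltransferase for complex IV (2.24 and 1.80, the second under 2). For the 18 genes of the tricarboxylic acid cycle and pyruvate dehydrogenase the medians were 1.37 and 1.09, with 1 and 0 of 18 at 2-fold or more on the same background. Of 11 tested regulators of respiratory genes, 6 and 2 were at 2-fold or more (42.1% and 28.6% of all genes), with medians of 2.25 and 1.87. Their Ensembl-ID counts alone gave medians of 1.30 and 1.26, beside 1.41 and 1.26 for all genes. On that count 1 and 0 of 11 were at 2-fold or more, beside 24.0% and 14.1% of all genes. On summed counts the factor genes Nrf1 and Gabpa had 2.25 and 1.79 for Malat1 over Actb.

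The members lay between the ribosomal protein lists. The 78 cytosolic ribosomal protein genes had medians of 1.02 and 0.982, with 72 and 78 of 78 under the all-gene median. The 76 mitochondrial ribosomal protein genes had 1.41 and 1.17, with 63 and 66 of 76 under it. The mitochondrial genes for the same complexes lay apart from the nuclear ones in the Tfrc library. The 13 protein-coding transcripts of the mitochondrial genome summed to 4.66% of the Actb library, 4.72% of the Malat1 library and 7.81% of the Tfrc library. Their median fold was 1.05 for Malat1 over Actb and 1.95 for Tfrc over Actb, beside 1.16 and 1.13 for the nuclear members. For Tfrc over Actb 6 of 13 were at 2-fold or more, beside 28.6% of all genes. The 13 had no Genome counts. On Ensembl-ID counts only, the nuclear medians were 0.984 and 1.05, and 14.1% of all genes were at 2-fold or more for Tfrc over Actb. In Malat1 over Tfrc the medians were 0.554 for the 13 mitochondrial and 1.04 for the 88 nuclear genes (1.02 for 86 on Ensembl-ID counts). For complex IV, mt-Co1, mt-Co2 and mt-Co3 had folds of 1.26, 2.12 and 1.15 for Tfrc over Actb. The sum of the 11 nuclear subunits had 1.03 (1.01 to 1.05), and 1.01 (0.987 to 1.04) on Ensembl-ID counts.

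Copies and neighbours bound the precision of single members. Of the 91 members, 33 have another annotated gene with at least 90% identity over 100 nt or more of the coding sequence, and 19 overlap another gene at exons. For these, reads may have been counted on either gene.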

How the data were processed

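RIA-seq libraries of mouse E14 ES cells were analysed, with 1 library per target (Actb as the control, Malat1, Tfrc), assigned from the oligonucleotides that the labels name. The authors deposited raw read counts per gene for each library, whole numbers without normalization, in lists that leave out genes at 0. The submitters' processing notes name Bowtie 0.12.7 and the builds mm9 and NCBIM37, with no role stated. Alignment settings, the counting rule, the use of strand, and the handling of reads with several matches are not given in the sources used here, and neither is what sets Ensembl-ID and Genome counts apart. Reads that match several genes may be lost or split, which bears on members with processed copies. All count columns belonged to the 3 libraries, and no column of the authors' own comparisons was present.

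Counts were summed per gene name and chromosome and divided by the library total, and folds are ratios of these shares with a pseudocount of 0. Distributions used genes that reached 10 counts in both. Intervals are at the 95% level, by Wilson's method for shares and on the log scale from the counts for folds. The library totals were 10405209 (Actb), 10078439 (Malat1) and 14553941 (Tfrc), and 3 counts set the floor. With 1 library per condition a call was a fold of at least 2 or at most 0.5. Named genes were the 2 members of each complex with the largest mean share, the 3 highest and 3 lowest folds over Actb at 50 counts or more, the 3 highest and 3 lowest Genome shares at 100 counts or more, complex II, the complex I core and the isoform sets. A few others (Ndufaf1, Ndufaf3, Uqcrc2, Uqcrfs1, Atp5l, Atp5h) were added after their values were seen, and 1 member is not reported here by its values. The members, the lists and the tests were chosen with earlier results of these data known.

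Gene positions, lengths and coding sequences came from GENCODE vM1 on NCBIM37, in which 98.6% of 24080 identifiers were found, 99.99% of these on the same chromosome. The mRNA length is that of the transcript with the longest coding sequence, and of the shortest such transcript where several tie. Copies were sought with BLAST+ 2.17.0 at 90% identity or more over 100 nt. RefSeq promoter windows of GRCm38.p6 were placed on NCBIM37 by exact match of their sequence. The computation of folds was tested on simulated counts. Alternatives changed the scaling, the pseudocount, the minimum, the kind of count, the members, the call and the control. Computations ran in Python 3.11.15 with pandas 2.3.3, scipy 1.17.1, matplotlib 3.10.9 and numpy 2.4.6.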

Additional observations from a re-analysis of the deposited data

How the results depend on the processing

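The direction of the members' ratios over Actb depended on the scaling. Of 77 alternatives, 23 stayed within the interval of the main value or within 1.5 times the count, and 54 moved. For summed shares that interval comes from the read counts alone and may be too narrow even for counting error. For median folds it is an interval of the median across member genes, such as 1.04 to 1.26 over 88 members for Malat1 over Actb. The summed share in Actb, Malat1 and Tfrc RIA-seq was 0.836, 0.499 and 0.532% by the median ratio over genes, 0.717, 0.506 and 0.612% by the 75th percentile, 1.21, 0.841 and 0.907% without the 10 genes with the most counts, 0.617, 0.650 and 0.609% without the 3 targets, 0.557, 0.590 and 0.567% on Ensembl-ID counts, 0.0143, 0.0524 and 0.0373% on Genome counts, and 0.557, 0.616 and 0.585% for subunits only. The median fold of Malat1 over Actb, Tfrc over Actb and Malat1 over Tfrc was 0.616, 0.680 and 0.922 by the median ratio, 0.727, 0.912 and 0.811 by the 75th percentile, and 0.717, 0.803 and 0.909 without the top 10 genes, under all-gene medians of 0.967, 0.937 and 1.02, of 1.14, 1.26 and 0.897, and of 1.13, 1.11 and 1.01. On Genome counts it was 2.94, 2.29 and 1.36. The first and second lay under all-gene medians of 3.60 and 2.86, but the third, for Malat1 over Tfrc, lay above that of 1.28. On Ensembl-ID counts it was 0.984 and 1.05 over Actb. Without the targets Tfrc over Actb gave 1.05, and Tfrc over Malat1 0.959. Members at 2-fold or more numbered 1 and 1 under each of these 3 scalings. The shares of all genes were 6.39% and 5.49% by the median ratio, 11.8% and 15.4% by the 75th percentile, and 11.2% and 10.0% without the top 10 genes. At 50 counts 4 and 0 members were called (37.6% and 20.8% of all genes). On Ensembl-ID counts 4 and 1 were called (24.0% and 14.1%), and on Genome counts 46 and 37 of 56 (88.6% and 79.6%). Of the subunits only, 5 of 81 were called in Malat1 RIA-seq, beside 42.1% of all genes. At a fold of 1.5 the members called were 18 and 5, beside 65.6% and 53.3% of all genes. With a chi-square test on the reads of the libraries (Benjamini-Hochberg), which compares libraries and not conditions, 41 and 42 were above 1, beside 73.9% and 68.0%. By the same test 14 and 10 of 88 members were below 1 (15.9% and 11.4%), beside 4.45% and 3.66% of all genes. The share of members under the all-gene median does not depend on scaling, but it differed with the kind of count. In Malat1 over Tfrc it was 64.8% on summed counts and 41.6% on Genome counts, where 32 of 77 members were under the median.

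No paired analysis was possible because each condition has 1 library, and leaving out a library would leave no comparison. Depth limits Cox6a2, Cox8b and Cox8c, which had at most 12 counts in a library.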
